A study of Mus musculus with 12 samples.

Results

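The comparison described here is that of Mut-2, a mouse embryonic stem cell line with the genotype label Tin2 S341X, with WT-2, a line labelled wild type. It rests on 3 Mut-2 and 3 WT-2 RNA-seq libraries of the 12 in the series, and on all 31641 gene symbols of the deposited count table. Both lines were derived from blastocysts of the strain C57BL/6. They were grown in serum with LIF, the cytokine that keeps mouse stem cells undifferentiated, on mouse embryonic fibroblasts (MEFs), and RNA was prepared from whole cultures, so any library can hold MEF transcripts. Each genotype is represented here by a single line, with libraries that the submitters describe as technical replicates. The p-values below therefore measure only the spread between libraries of a line, and a difference between Mut-2 and WT-2 cannot be told apart from any other difference between these lines. The other pair of lines, Mut-1 and WT-1 (3 libraries each, with the same genotype labels), shares no library with Mut-2 and WT-2 and is given beside the results where it helps to read them.

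Library totals were 16504142, 16138574 and 15251613 counts for Mut-2 replicates 1, 2 and 3, and 16013579, 17106437 and 15127354 counts for WT-2. Both lines expressed the factors that define embryonic stem cells. Pou5f1 (Oct4) had 281, 312 and 359 counts per 1000000 library counts (CPM, scaled by the TMM factors) in Mut-2 and 277, 307 and 271 CPM in WT-2. Nanog had 848, 781 and 866 CPM in Mut-2, against 534, 705 and 654 CPM in WT-2, where the log2 fold change was 0.40 (edgeR adjusted p = 0.297). Mut-2 and WT-2 libraries deviated from their line means together for replicates 1 and 2 (correlations of 0.695 and 0.391). For replicate 3 they did so only weakly (0.115), and Mut-2 replicate 3 correlated more with WT-2 replicate 2 (0.389). Values from fits with the replicate number as a block stand beside the results they change. Where such a fit used the 12 libraries it is called the blocked fit of 12 libraries, and where it used Mut-2 and WT-2 alone, the blocked fit of 6.

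Telomeres are covered by shelterin, a complex whose TRF1 (gene Terf1) and TRF2 subunits bind the double-stranded repeats. TIN2, the product of Tinf2, holds TRF1, TRF2 and the TPP1-POT1 arm together. Cells without telomerase can keep telomeres by recombination, a route called ALT (alternative lengthening of telomeres), and the series addresses such phenotypes and differentiation in stem cells short of TIN2. In mouse embryonic stem cell cultures a small fraction of cells at any time transcribes genes of the 2-cell embryo, among them the Zscan4 family, which is known in these cells for telomere elongation by recombination.

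The label S341X names serine 341 and, by the usual notation, a stop in its place. In transcript Tinf2-201 (GRCm38, GENCODE M21) this codon lies at chr14:55679924-55679926 on the minus strand, in exon 7 of 9, with 73 of the 414 residues after it. The codons 331 to 351 are shown for where the label places the change, from the reference genome, spliced across exons 6 and 7, with codon 341 in capitals. The base change carried by the line is not given in the sources used here.
Tinf2 codons 331 to 351: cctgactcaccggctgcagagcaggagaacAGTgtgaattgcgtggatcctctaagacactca

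Tinf2 had 30.1, 27.4 and 19.6 CPM in Mut-2 replicates 1, 2 and 3, against 63.9, 58.7 and 60.5 CPM in WT-2. Each Mut-2 library lay below each WT-2 library. The log2 fold change was -1.25 (SE 0.17) with an adjusted p of 0.00911 by edgeR's quasi-likelihood test with Benjamini-Hochberg adjustment, which is the test meant below wherever an adjusted p is given without another name. Counts per gene do not show whether the transcripts carry the stop.

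Terf1, the gene of TIN2's partner TRF1, went the other way. It had 140, 147 and 145 CPM in Mut-2 and 79.4, 83.8 and 76.1 CPM in WT-2, with no overlap and little spread within either line. The log2 fold change was 0.85 (SE 0.15, adjusted p = 0.0216), and 0.73 for Mut-1 over WT-1, where it did not pass (adjusted p = 0.0621). Terf1, on chromosome 1, lost its call without Mut-2 replicate 2 or 3 or without any single WT-2 library, at adjusted p-values between 0.0521 and 0.169, with log2 fold changes of 0.82 to 0.89. Of 23 tested shelterin and telomerase genes, Terf1 rose and Tinf2 fell, and the other 21 did not pass. Among those, Acd, which encodes TPP1, had 30.5, 29.2 and 33.2 CPM in Mut-2 and 38.8, 38.7 and 44.6 CPM in WT-2 (adjusted p = 0.144). Tep1, the gene of a telomerase-associated protein, had 36.98, 38.3 and 32.6 CPM in Mut-2, against 22.3, 25.0 and 29.98 CPM in WT-2 (adjusted p = 0.119). Both were separated between the lines, Acd downward and Tep1 upward, and lie on chromosomes 8 and 14, which are described below.

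**Figure D1:**
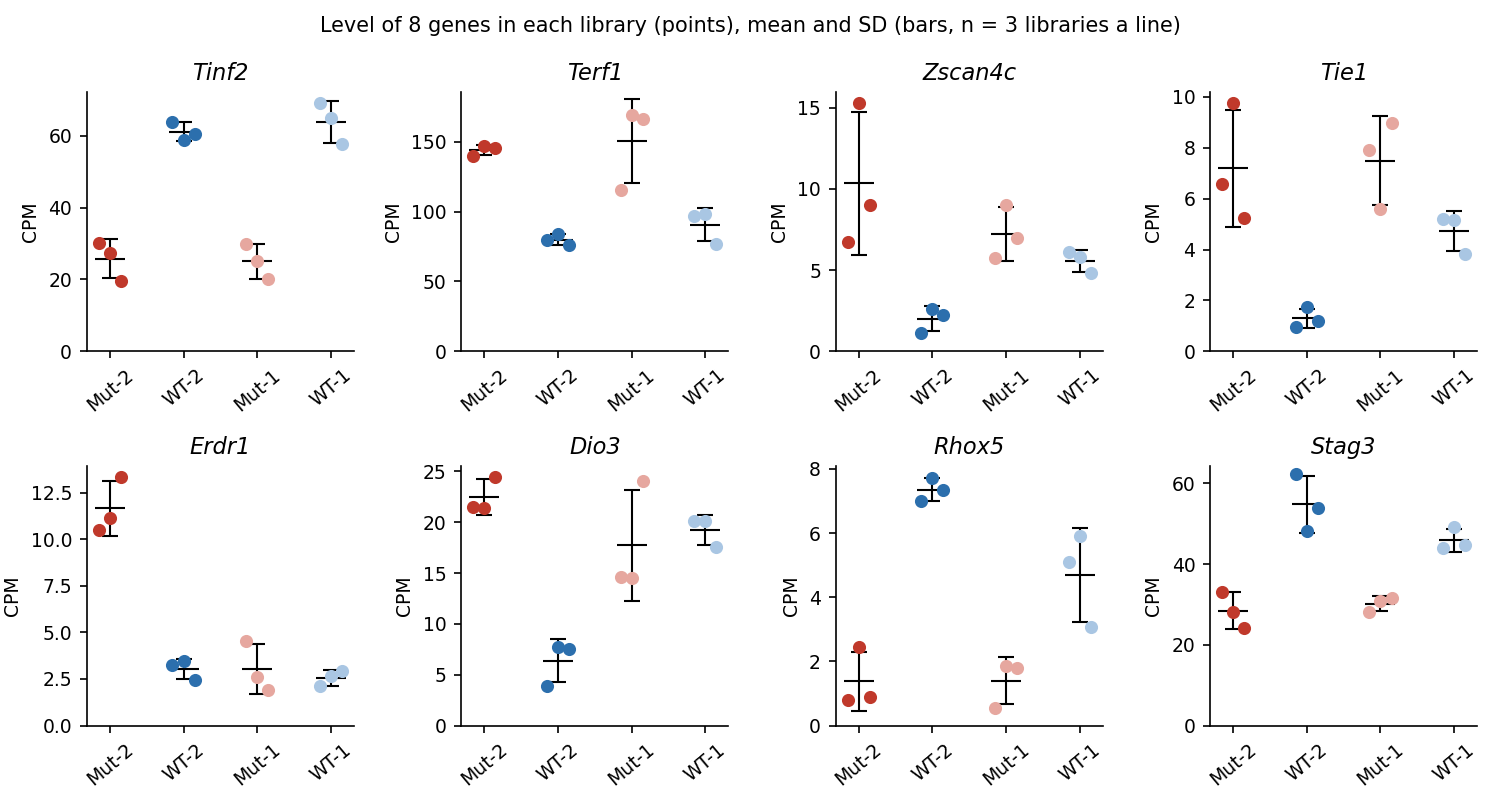
Level in CPM (vertical axes, from 0) of 8 genes in each library of the 4 lines (horizontal axes), with points for libraries and bars for the mean and SD over the 3 libraries of a line. Tinf2 is low in both mutant lines, Erdr1 is high in Mut-2 alone, and Dio3 and Zscan4c are lowest in WT-2.

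Over all genes, 153 of the 16533 tested passed at an adjusted p under 0.05. In Mut-2, 121 genes rose (0.732% of those tested) and 32 fell (0.194%), and a change of at least 2-fold was seen in 66 genes that rose and 10 that fell. The 3 Mut-2 libraries lay on 1 side of the 3 WT-2 libraries in each of the 153. Such separation alone was common, with 1890 genes (11.4%) above and 1229 genes (7.43%) below. At an unadjusted p under 0.05, 1598 of the 16533 genes were higher and 901 lower. DESeq2 called 446 higher and 243 lower. Counts of list members given below are to be read beside these. The blocked fit of 12 libraries called 234 genes higher (1.42%) and 94 lower (0.569%), and the blocked fit of 6 called 573 of 15810 higher (3.62%) and 213 lower (1.35%). Without the block the 6 Mut-2 and WT-2 libraries gave 12 calls, and 2 genes were called without Mut-2 replicates 1 and 2, which held the most feeder transcripts among the libraries of Mut-2 and WT-2. Of 54 called genes named here, 5 were called with any 1 of the 12 libraries left out, namely Tinf2, 1700013H16Rik, Gm11543, Gm2016 and Gm5662. Most of the others lost their call without Mut-2 replicate 2 (47 genes), WT-2 replicate 3 (46 genes) or WT-2 replicate 1 (38 genes).

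The higher genes had a median log2 fold change of 1.23 for Mut-2 over WT-2 and of 0.44 for Mut-1 over WT-1. For the lower genes the medians were -0.81 and -0.20, and over all tested genes -0.00 and 0.02. These genes were chosen by their change in Mut-2 over WT-2, so a larger median there follows from the choice.

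Genes of the 2-cell stage made the largest group among the strongest rises. Of 29 tested members of the list, 29 had a positive log2 fold change and 13 rose at an adjusted p under 0.05. In 21 each Mut-2 library lay above each WT-2 library, against 11.4% of all tested genes. The median log2 fold change of the 29 was 2.07. The list held 37 genes, 35 of them in the table, and was chosen with earlier results of these data known. Members low in WT-2 could pass the filter on low counts through libraries where they were high, Mut-2 among them, which favours positive values. With no filter on low counts, 22 of 35 members were called higher with a median of 2.005, where 720 genes rose over the whole table. Summed over the list, the level was 94.1, 172 and 111 CPM in Mut-2 replicates 1, 2 and 3, against 18.1, 35.6 and 35.6 CPM in WT-2, so that the lowest Mut-2 library was above the highest WT-2 library. The blocked fits called 17 of 29 members (12 libraries) and 18 of 23 (6 libraries). With a single library left out the calls ranged from 2 to 15, with 2 without Mut-2 replicate 2 or WT-2 replicate 3 and 3 without WT-2 replicate 1. The 6 libraries without a block gave 2 calls in 23 members, and no member passed without Mut-2 replicates 1 and 2, where the median was 1.91. When the feeder share was a covariate, 7 members passed and the median was 2.25. In bulk RNA a larger fraction of cells that transcribe these genes and more RNA per such cell cannot be told apart.

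Zscan4, a family of zinc finger genes in a cluster on chromosome 7, gave 5 of the 13 calls (Zscan4a, Zscan4c, Zscan4d, Zscan4f and Zscan4-ps2). Zscan4c had 6.74, 15.2 and 8.99 CPM in Mut-2 and 1.15, 2.61 and 2.24 CPM in WT-2. Replicate 2 was the highest library of each line, and the lines did not overlap (log2 fold change 2.36, SE 0.36, adjusted p = 0.0125). Without Mut-2 replicate 2, WT-2 replicate 1 or WT-2 replicate 3 the adjusted p of Zscan4c was 0.0759, 0.0576 and 0.0524. Zscan4a had 8.52, 20.4 and 11.6 CPM in Mut-2, against 1.33, 4.63 and 3.57 CPM in WT-2 (log2 fold change 2.09, adjusted p = 0.0435). Zscan4d had 5.49, 15.4 and 10.03 CPM in Mut-2, against 1.21, 2.91 and 3.63 CPM in WT-2 (adjusted p = 0.0464), and Zscan4f rose by 2.07 on the log2 scale (adjusted p = 0.0338). Within chr7:10794242-11614112 all 9 tested genes were positive and 7 were called.

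Reads of these genes are hard to assign to single copies. The longest coding sequences of Zscan4c, Zscan4d and Zscan4f in GENCODE M21 have 1521 bases each and were 97.7% to 99.6% identical, so the family is better read as a whole. The stretches before their starts are shown because the copies moved together. They come from the RefSeq promoter table (GRCm38.p6), hold 76 bases each, are given on the gene's strand and carry the motif TATAAA in capitals. The motif begins 54, 65 and 31 bases before the annotated starts of Zscan4c, Zscan4d and Zscan4f. The stretch of Zscan4c did not differ from that of Zscan4f, and that of Zscan4d differed from both at 2 positions. TATAAA was found on the gene's strand in the 250 bases upstream of 7.59% of 32851 promoters in the table, and on either strand in 12.4%. A match of letters is a description of the sequence only.
Zscan4c, chr7:11005641-11005716, plus strand: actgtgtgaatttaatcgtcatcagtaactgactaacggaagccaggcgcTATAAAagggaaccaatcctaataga
Zscan4d, chr7:11166188-11166263, minus strand: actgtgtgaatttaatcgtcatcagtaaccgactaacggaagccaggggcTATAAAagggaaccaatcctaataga
Zscan4f, chr7:11397834-11397909, plus strand: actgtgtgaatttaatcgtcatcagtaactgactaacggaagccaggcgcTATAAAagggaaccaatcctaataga

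The remaining calls of the list lie on other chromosomes. Gm5662, a predicted gene, had 18.7, 25.2 and 17.2 CPM in Mut-2 and 2.89, 3.68 and 4.49 CPM in WT-2 (log2 fold change 2.46, SE 0.27, adjusted p = 0.00204). Gm2016 had 7.201, 8.62 and 7.19 CPM in Mut-2, against 0.844, 1.42 and 1.39 CPM in WT-2 (log2 fold change 2.65, SE 0.29, adjusted p = 0.00204). Both belong to a block on chromosome 12 (chr12:87514316-88324026) where all 14 tested genes were positive, 9 were called, and the median log2 fold change was 2.37. Gm8300 and BB287469, further predicted or uncharacterized members of the list, lie in it and rose by 2.101 and 2.66 on the log2 scale. How alike the genes of this block are in sequence was not examined. It is therefore not known how far their reads can be told apart, or how many separate genes rose.

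Runs of neighbouring called genes of the same direction also lay on chromosomes 13 and 11. On chromosome 13, Tcstv1 and 3 predicted genes next to it (chr13:119893388-120155335) were all called, with a median of 2.18. Tmem92 had 7.26, 13.5 and 7.75 CPM in Mut-2 and 1.21, 2.61 and 2.58 CPM in WT-2. It lies in a run of 4 on chromosome 11 (chr11:94777217-94828930) with AA623943, Gm11546 and Gm11543, the last 3 outside the list, with a median of 2.96. These 3 are annotated as unprocessed pseudogenes. Sequence identity within the runs on chromosomes 13 and 11 was not examined either. AA623943 had 3.37, 6.75 and 1.80 CPM in Mut-2 and 0.482, 0.950 and 0.462 CPM in WT-2, a log2 fold change of 2.63. Arg2, an arginase, and Sp110, a nuclear body protein gene, completed the called members with log2 fold changes of 2.55 and 2.32. Both were low. Arg2 had 1.09, 1.81 and 1.59 CPM in Mut-2 and 0.181, 0.119 and 0.462 CPM in WT-2. Sp110 had 2.86, 4.12 and 2.90 CPM in Mut-2 and 0.964, 0.534 and 0.462 CPM in WT-2. With 1 library left out, Arg2 kept its call in 5 of 12 fits and Sp110 in 9. Usp17lc, a deubiquitinase gene of the 2-cell list, had 1.77, 4.44 and 3.39 CPM in Mut-2, against 0.301, 1.42 and 0.726 CPM in WT-2, and was called in the blocked fits (adjusted p = 0.0346 with 12 libraries and 0.0195 with 6, against 0.0718). Zfp352, a zinc finger gene of that stage, was below 1 CPM in every library of both lines.

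The level of these genes in the other lines places WT-2 as the lowest. Summed over the list, Mut-1 replicates had 68.0, 114 and 114 CPM and WT-1 replicates had 74.7, 70.8 and 59.6 CPM, all above the WT-2 libraries. The lowest Mut-2 library, at 94.1 CPM, was above each WT-1 library, and Mut-2 and Mut-1 overlapped. The median log2 fold change of Mut-1 over WT-1 was 0.61. The test of the difference between the pairs of lines called none of the 29 members (12 genes, 0.0726%, were called over the whole table). For Zscan4c this difference was 1.99 (adjusted p = 0.283).

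**Figure D2:**
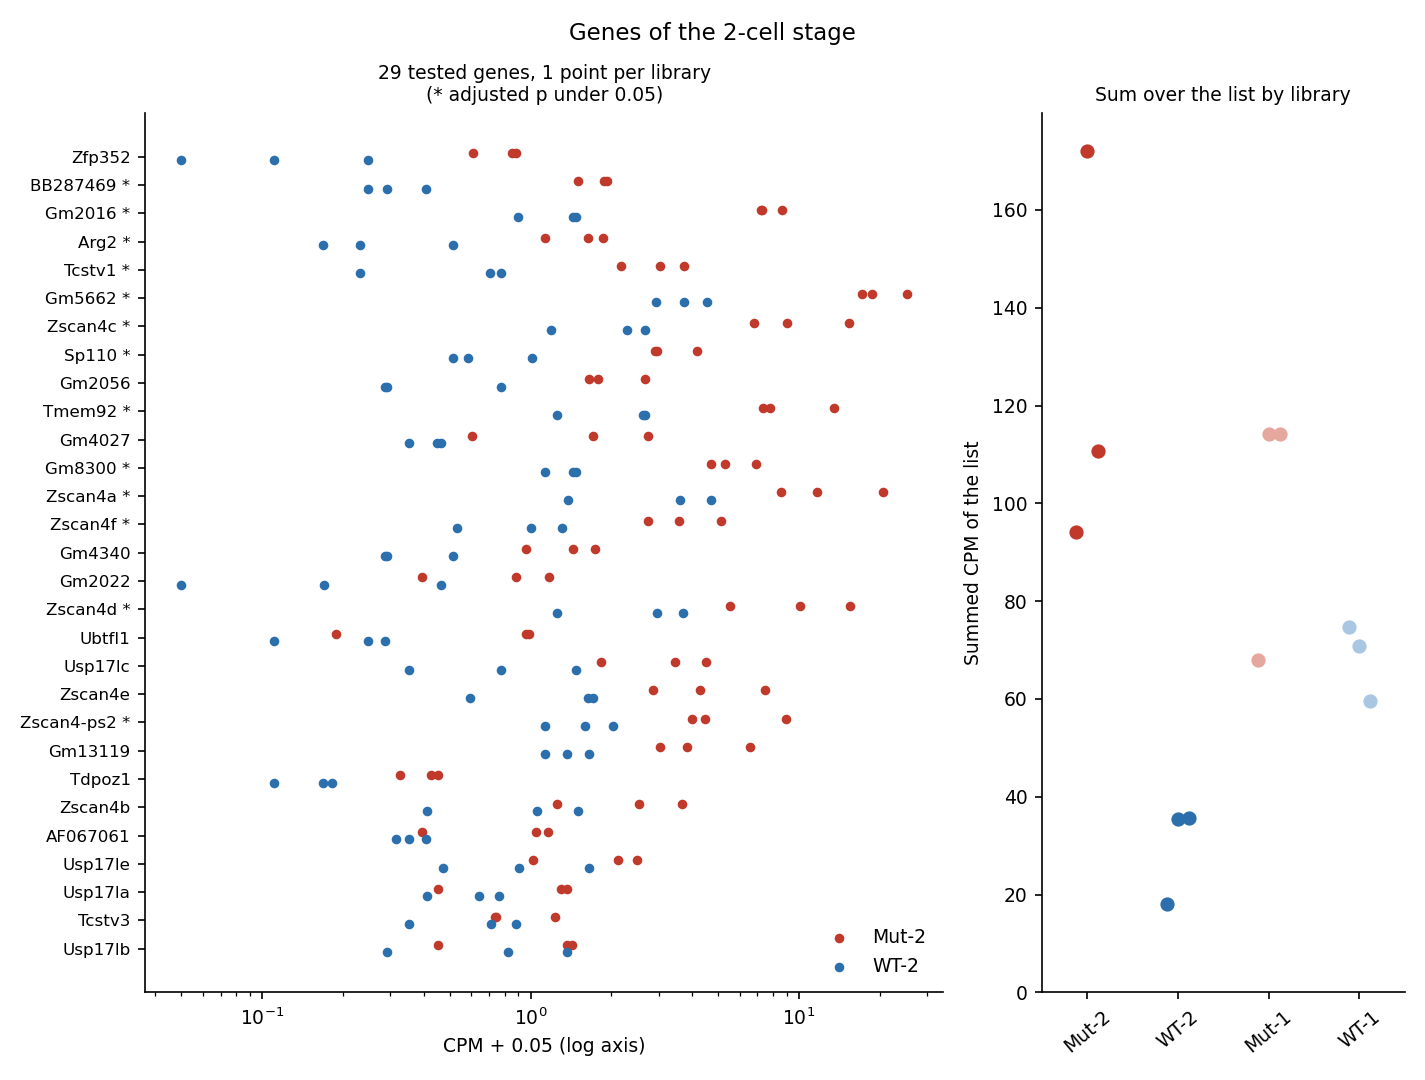
Left, CPM + 0.05 on a log axis for the 29 tested genes of the 2-cell stage list, with 1 point per Mut-2 or WT-2 library, ordered by log2 fold change and with asterisks at genes called at an adjusted p under 0.05. Right, CPM summed over the list in each library of the 4 lines, between 94.1 and 172 in Mut-2 and between 18.1 and 35.6 in WT-2.

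Outside the 2-cell list, the largest rises by the naming rule belonged to no single list. Tie1, a receptor tyrosine kinase of endothelial cells, had 6.57, 9.75 and 5.26 CPM in Mut-2, against 0.964, 1.72 and 1.19 CPM in WT-2 (log2 fold change 2.47, SE 0.32, adjusted p = 0.00812). The libraries did not overlap, and Mut-1 and WT-1 averaged 7.496 and 4.72 CPM. Plvap, which forms the diaphragms of endothelial fenestrae, fell to 3.71, 3.56 and 3.60 CPM in Mut-2, against 10.1, 6.12 and 7.197 CPM in WT-2 (adjusted p = 0.0499). Of the 16 tested endothelial and blood markers these 2 were called, in opposite directions (2 higher and 1 lower in either blocked fit), and the summed list had 399 to 497 CPM in Mut-2 and 396 to 454 CPM in WT-2.

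Erdr1, a gene of the pseudoautosomal end of the sex chromosomes, had 10.5, 11.1 and 13.3 CPM in Mut-2, against 3.26, 3.44 and 2.44 CPM in WT-2 (log2 fold change 1.93, SE 0.30, adjusted p = 0.0133). Mut-1 at 3.02 CPM and WT-1 at 2.56 CPM on average lay near WT-2, so that Mut-2 was the line set apart. The difference between the pairs of lines did not pass (adjusted p = 0.301).

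Dio3, the type III deiodinase that inactivates thyroid hormone, had 21.5, 21.4 and 24.5 CPM in Mut-2 and 3.92, 7.72 and 7.53 CPM in WT-2 (log2 fold change 1.81, SE 0.26, adjusted p = 0.0109). Mut-1 averaged 17.7 CPM and WT-1 19.24 CPM, so here WT-2 was the low line. Dio3 lies in the imprinted Dlk1-Dio3 domain of chromosome 12. Its neighbours Dlk1, Meg3, Rian and Mirg, looked up after the value of Dio3 was seen, had log2 fold changes of 0.68, 0.19, 0.29 and 0.45 and did not pass (adjusted p from 0.384 to 0.63). Meg3, for example, had 195, 180 and 179 CPM in Mut-2 and 161, 164 and 159 CPM in WT-2.

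Aox3, an aldehyde oxidase, averaged 7.07 ± 2.84 CPM in Mut-2 and 1.64 ± 0.336 CPM in WT-2 (SD, n = 3 libraries each), a log2 fold change of 2.103, and was also called for Mut-1 over WT-1 at 1.72. Ceacam20, a carcinoembryonic antigen family member, had 2.97, 4.06 and 2.90 CPM in Mut-2 and 0.543, 0.891 and 1.06 CPM in WT-2. Foxd1, a forkhead transcription factor, Colgalt2, a collagen galactosyltransferase, and H2-Eb1, an MHC class II chain, were also among these genes, with log2 fold changes of 1.72, 1.61 and 1.60.

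Of the lower genes, 3 belonged to the germline and meiosis list. Rhox5, an X-linked homeobox gene, had 0.800, 2.44 and 0.899 CPM in Mut-2, against 6.99, 7.72 and 7.33 CPM in WT-2 (log2 fold change -2.41, SE 0.47, adjusted p = 0.0348). Stag3, the meiotic cohesin subunit, had 33.1, 28.2 and 24.1 CPM in Mut-2 and 62.3, 48.2 and 53.9 CPM in WT-2 (log2 fold change -0.94, SE 0.14, adjusted p = 0.0125). Hsf2bp, which acts in meiotic recombination, had 36.9, 40.9 and 37.5 CPM in Mut-2 and 74.4, 73.1 and 76.7 CPM in WT-2 (log2 fold change -0.96, SE 0.17, adjusted p = 0.0216). None of the 3 had overlapping libraries, though Rhox5 was called in only 2 of the 12 fits with a library left out (adjusted p up to 0.104), and each had the same sign for Mut-1 over WT-1. They were 3 of 36 tested members of the list, of which 0 rose, and the list's median was -0.09. Of the 36, 11 had each Mut-2 library below each WT-2 library, against 7.43% of all tested genes. The number of lower calls was 0 without Mut-2 replicate 2 or WT-2 replicate 3, and 1 to 3 with any other library left out. The blocked fits called 4 (12 libraries) and 5 of 35 (6 libraries). Dmc1, the meiotic recombinase, had a log2 fold change of -0.57 that passed in the blocked fits (adjusted p = 0.0413 with 12 libraries and 0.0404 with 6, against 0.087 without a block).

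Other lower genes came from several functions. Phf19, a Polycomb-like protein that recruits PRC2 to chromatin, averaged 3.76 ± 0.855 CPM in Mut-2 and 9.21 ± 1.77 CPM in WT-2 (SD, n = 3 libraries each; edgeR log2 fold change -1.29, SE 0.25, adjusted p = 0.0348). The PRC2 methyltransferase gene Ezh2 averaged 136 CPM in Mut-2 and 187 CPM in WT-2 and passed in the blocked fit of 6 (adjusted p = 0.0387, against 0.0704), which called 1 higher and 3 lower of 12 PRC2 genes, against 0 higher and 1 lower without a block. Eda2r, a TNF-family receptor listed among p53 targets, had 12.7, 18.6 and 17.0 CPM in Mut-2 and 40.1, 30.8 and 44.2 CPM in WT-2 (adjusted p = 0.011). Pycr1, an enzyme of proline synthesis, had 24.2, 24.1 and 16.04 CPM in Mut-2, against 48.1, 41.7 and 50.4 CPM in WT-2 (adjusted p = 0.0348). Pdk1, the kinase that restrains pyruvate dehydrogenase, had 101, 101 and 96.2 CPM in Mut-2, against 166, 147 and 180 CPM in WT-2 (log2 fold change -0.73, adjusted p = 0.0156). Cpne9, Glipr2, Gpx2, Tarbp1, Wwc1 and Prmt7 completed the 15 lower genes, at log2 fold changes between -1.75 and -0.79.

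The steepest fall of all was in a gene the naming rule passes over and that was picked out after its values were seen. The X-linked 1700013H16Rik had 0.171, 0.50 and 0.0692 CPM in Mut-2, against 6.75, 6.17 and 6.67 CPM in WT-2, a log2 fold change of -4.67 (adjusted p = 0.00204). Mut-1 and WT-1 were between 0.236 and 0.672 CPM in every library, so WT-2 was the line set apart. Gpc3, an X-linked glypican gene, had 29.4, 26.4 and 34.2 CPM in Mut-2 and 80.2, 57.6 and 77.4 CPM in WT-2 (log2 fold change -1.26, SE 0.20, adjusted p = 0.0154). Its means were 49.3 CPM in Mut-1 and 40.6 CPM in WT-1.

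Genes of chromosomes 14 and 8 were shifted as wholes. A chromosome's shift is here its median edgeR log2 fold change of Mut-2 over WT-2, less the same median over the remaining autosomes. Both medians are over genes averaging 5 CPM or more. Values per library are instead medians of log2(CPM + 0.5), centred on each gene's mean over the 6 libraries, less those of the remaining autosomes. The other 17 autosomes had shifts between -0.04 and 0.04.

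Chromosome 14, which carries Tinf2, was higher in Mut-2. Its shift was 0.45 over 401 genes, 1.37-fold, and 371 of the 401 were positive. Per library it was 0.23, 0.23 and 0.22 in Mut-2 and -0.24, -0.21 and -0.20 in WT-2. Of 540 tested genes on it, 39 rose (7.22%, against 0.732% of all tested genes) and 1 fell, which was Tinf2. The 39 log2 fold changes were between 0.48 and 1.53. It ran along the whole chromosome. In 5 consecutive blocks of 80 or 81 genes, from the lowest coordinate on, the median log2 fold changes were 0.26, 0.34, 0.51, 0.51 and 0.47. For Mut-1 over WT-1 the chromosome's median was 0.33, and the blocks lay between 0.29 and 0.39.

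Known genes among these calls included Spry2, a feedback inhibitor of receptor tyrosine kinase signalling, with 190, 255 and 243 CPM in Mut-2 and 64.2, 100 and 112 CPM in WT-2 (log2 fold change 1.32, SE 0.20, adjusted p = 0.0125). It was the 1 called member of 22 FGF-ERK genes, of which the blocked fit of 6 called 3. Ctsb, a lysosomal protease and the 1 called member of 30 lysosome and autophagy genes, had 732, 740 and 619 CPM in Mut-2, against 446, 434 and 408 CPM in WT-2 (adjusted p = 0.0348). Tnfrsf10b, a death receptor and p53 target, had 109, 95.2 and 103 CPM in Mut-2 and 79.9, 54.6 and 52.2 CPM in WT-2 (adjusted p = 0.0435). Ripk3, a kinase of necroptosis, and Mmp14, a membrane-bound matrix metalloprotease, named after their values were seen, were also called, at 0.79 and 0.82. In each case the log2 fold change was above the chromosome's median of 0.43, and whether it differs from it was not tested.

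The calls on chromosome 14 depended on the fit more than the shift did. The blocked fits called 73 genes higher (12 libraries) and 109 higher (6 libraries), the 6 libraries without a block called 0, and with 1 library left out the number was between 0 (without Mut-2 replicate 2) and 65. The median over all its tested genes stayed between 0.41 and 0.45 in every fit run that kept the chromosome. A refit left out chromosome 14 genes before filtering, normalization and adjustment. It called 60 genes higher and 23 lower, all of them among the 153. Since 39 higher calls and 1 lower call of the 153 lay on chromosome 14, some calls on other chromosomes were lost in this refit.

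Chromosome 8 was lower in Mut-2 than in WT-2. Its shift was -0.23 over 623 genes, 0.851-fold, and 112 of the 623 were positive. Per library it was -0.14, -0.12 and -0.11 in Mut-2 and 0.08, 0.12 and 0.14 in WT-2, and in 5 blocks along the chromosome the medians lay between -0.29 and -0.19. Of 863 tested genes 14 fell (1.62%, against 0.194% of all tested genes) and 1 rose. Mut-1 over WT-1 had a median of -0.05. The blocked fits called 38 (12 libraries) and 65 (6 libraries) genes lower, and the 6 libraries without a block called 1. With 1 library left out the lower calls numbered 0 (without Mut-2 replicate 2 or WT-2 replicate 3) to 23 (without WT-1 replicate 3), and 21 without Mut-1 replicate 1.

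Prmt7, an arginine methyltransferase, had 97.7, 90.4 and 90.7 CPM in Mut-2 and 173, 148 and 162 CPM in WT-2 (log2 fold change -0.79, SE 0.11, adjusted p = 0.00911). Tarbp1, an RNA methyltransferase, had 16.2, 15.6 and 15.4 CPM in Mut-2, against 27.2, 28.6 and 26.9 CPM in WT-2 (adjusted p = 0.0125). Mut-1 and WT-1 averaged 103 and 128 CPM for Prmt7 and 16.8 and 21.55 CPM for Tarbp1, so WT-2 was the highest line in both. Further calls on chromosome 8, named after their values were seen, included Wrn, the RecQ helicase lost in Werner syndrome, at -0.71, and Upf1, the helicase of nonsense-mediated decay, at -0.59. Pcm1, a centriolar satellite protein gene, and Brd7, a subunit of a SWI/SNF chromatin remodeller, were at -0.52 and -0.49.

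**Figure D3:**
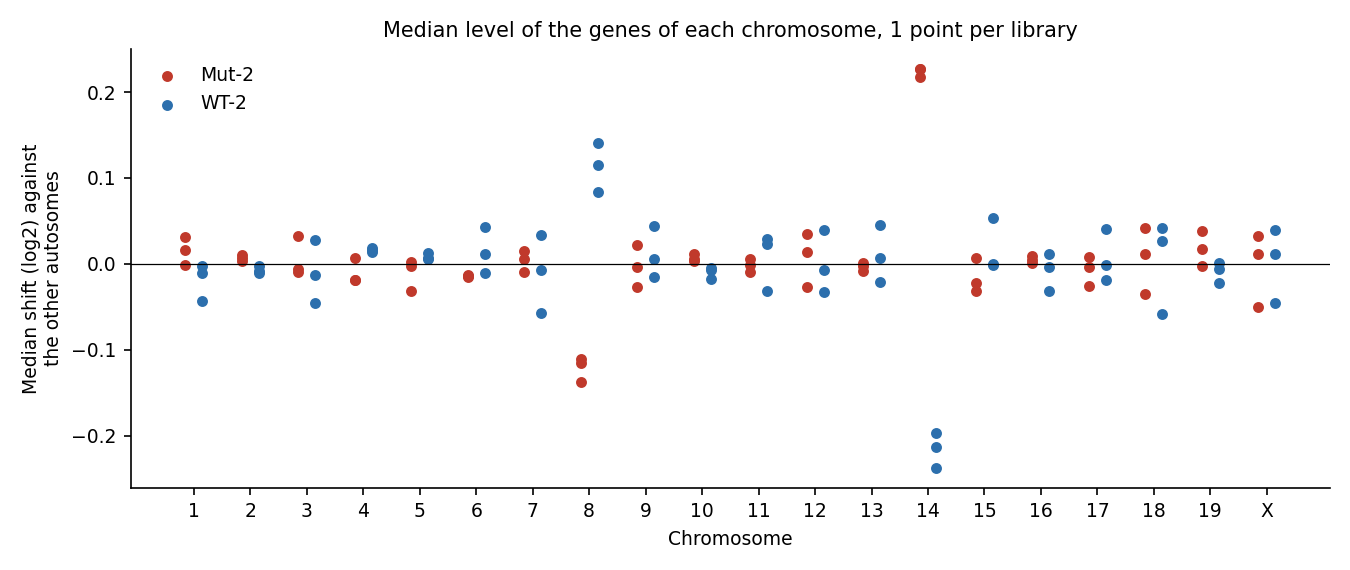
Median shift in log2 units of the genes of each chromosome (horizontal axis) against the other autosomes, with 1 point per library. Chromosome 14 is at 0.22 to 0.23 in Mut-2 and -0.24 to -0.20 in WT-2, and chromosome 8 at -0.14 to -0.11 in Mut-2 and 0.08 to 0.14 in WT-2.

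**Figure D4:**
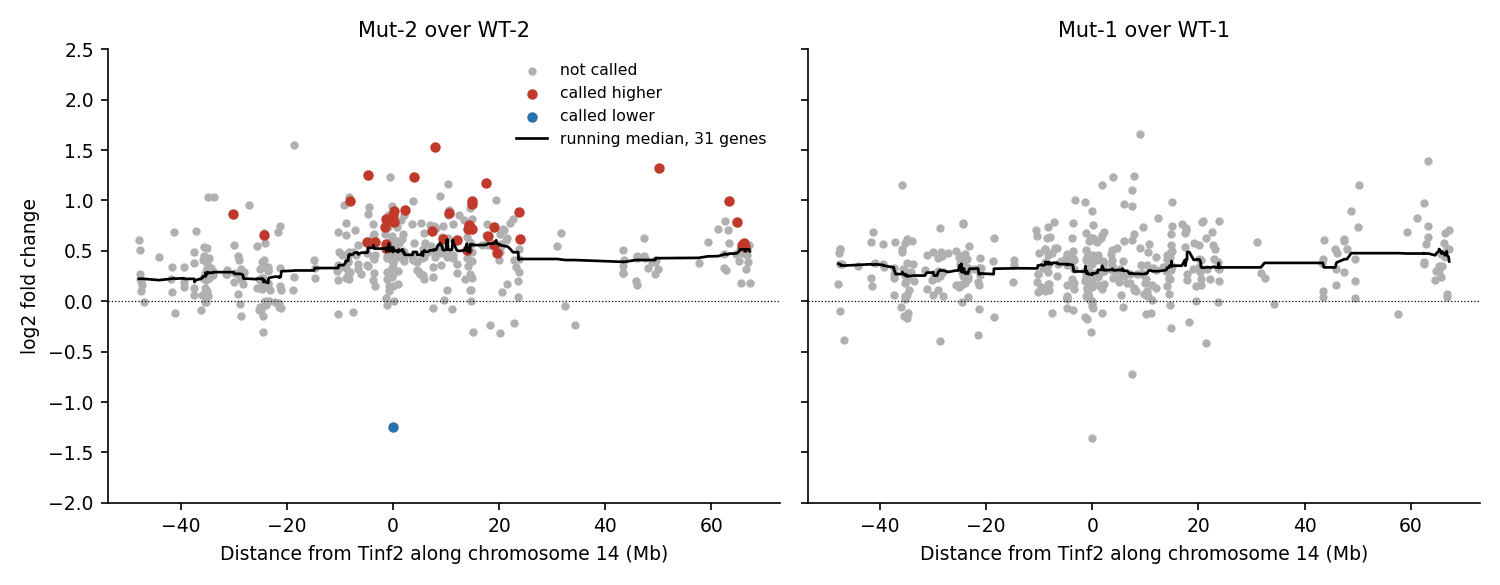
Log2 fold change of 401 genes of chromosome 14 against their distance from Tinf2 in Mb, for Mut-2 over WT-2 (left, with called genes in colour) and Mut-1 over WT-1 (right), with the running median of 31 genes as a line. The running median is above 0 throughout both panels, and Tinf2, at distance 0, lies at -1.25 in the left one.

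Of 8 tested genes of the Y chromosome 3 rose, namely Ddx3y, the pseudogene Mid1-ps1 and Uba1y, a ubiquitin-activating enzyme gene. Ddx3y, a Y-linked RNA helicase, had 11.1, 15.7 and 10.7 CPM in Mut-2 and 4.16, 5.403 and 4.42 CPM in WT-2 (log2 fold change 1.42, SE 0.29, adjusted p = 0.039). Uty, a Y-linked histone demethylase family member, had 3.60, 4.00 and 3.25 CPM in Mut-2, against 1.69, 1.31 and 1.52 CPM in WT-2 (log2 fold change 1.26, adjusted p = 0.1, and 0.0446 in the blocked fit of 6). Eif2s3y, a translation initiation factor subunit, averaged 10.4 CPM in Mut-2 and 5.45 CPM in WT-2 (adjusted p = 0.0904, and 0.04 in the blocked fit of 6). Uba1y had 16, 10 and 4 reads in Mut-2 and 0 reads in each WT-2 library. For Ddx3y, Uty and Eif2s3y the order of the means was the opposite in the other pair of lines. Ddx3y averaged 7.02 CPM in Mut-1 and 15.3 CPM in WT-1, and Uty averaged 1.72 CPM in Mut-1 and 7.16 CPM in WT-1. Uba1y also had the opposite order there, with means of 0.360 CPM in Mut-1 and 0.579 CPM in WT-1. Mid1-ps1, at chrY:90753057-90763485, lies far from Ddx3y and Uba1y and had another pattern. It averaged 2.21 CPM in Mut-2 and 0.331 CPM in WT-2, against 0.249 CPM in Mut-1 and 0.171 CPM in WT-1, so Mut-2 was the line set apart. Libraries of Mut-1 and WT-1 overlapped for both of these low genes. Kdm5d, a Y-linked histone demethylase gene, had positive log2 fold changes of 0.71 for Mut-2 over WT-2 (adjusted p = 0.402) and 0.22 for Mut-1 over WT-1. The difference between the pairs was called for Ddx3y (2.54, SE 0.40, adjusted p = 0.0376) and Uty (3.31, SE 0.48, adjusted p = 0.027).

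Markers of feeder fibroblasts had positive log2 fold changes throughout the list, and this stands beside every list of mesenchymal or secreted factors below. They took 2.01%, 2.14% and 1.25% of the counts in Mut-2 replicates 1, 2 and 3 and 1.28%, 1.29% and 0.994% in WT-2. Replicates 1 and 2 of Mut-2 lay above all other libraries of the 2 lines, while Mut-2 replicate 3 lay within the range of WT-2 in this share. The means were 1.80% ± 0.479 and 1.19% ± 0.168 (SD, n = 3 each), and an exact two-sided permutation test gave p = 0.3, where 3 against 3 cannot go below 0.1. For the collagen genes alone the shares averaged 0.412% in Mut-2 and 0.260% in WT-2, and without the 3 most abundant markers 1.16% in Mut-2 and 0.725% in WT-2. In both of these each Mut-2 library lay above each WT-2 library, with p = 0.1 by the exact permutation test, the smallest it can give. All 39 tested markers were positive, with a median log2 fold change of 0.71. Of these, 26 had each Mut-2 library above each WT-2 library, against 11.4% of all tested genes. For the list edgeR called 0 (23 at an unadjusted p under 0.05, and 5 by DESeq2). Blocked fits called 1 marker (12 libraries) and 28 of 38 (6 libraries). None of the markers was at 0, and the summed list had 13202 to 21591 CPM in Mut-2 and 9931 to 13080 CPM in WT-2. Col5a2, a fibrillar collagen, had 564, 755 and 501 CPM in Mut-2, against 292, 408 and 262 CPM in WT-2 (log2 fold change 0.92, adjusted p = 0.122, and 0.00915 in the blocked fit of 6). Myl9, a myosin light chain of contractile fibroblasts, had 83.1, 134 and 79.3 CPM in Mut-2 and 43.8, 70.4 and 34.7 CPM in WT-2 (adjusted p = 0.0728, with 0.0301 and 0.0105 in the blocked fits of 12 and 6).

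Hox genes and secreted inflammatory factors had positive medians beside this. Of 28 tested Hox genes 24 were positive, with a median of 0.76 and 0 calls by edgeR (12 higher at an unadjusted p under 0.05, and 4 by DESeq2). In 15 of the 28 each Mut-2 library lay above each WT-2 library, against 11.4% of all tested genes. Hoxb9, a posterior Hox gene, averaged 18.4 ± 3.60 CPM in Mut-2 and 11.6 ± 1.65 CPM in WT-2 (SD, n = 3 libraries each; edgeR adjusted p = 0.0844). Of 24 tested secreted factors 22 were positive, with a median of 0.68 and 0 calls by edgeR (11 higher at an unadjusted p under 0.05, and 4 by DESeq2), and the blocked fit of 6 called 9 higher and 1 lower. Among them Plau, the urokinase gene, on chromosome 14, had 9.14, 12.4 and 11.1 CPM in Mut-2 and 4.10, 5.94 and 5.88 CPM in WT-2 (adjusted p = 0.111, and 0.0224 in the blocked fit of 6). Primitive endoderm markers had a median of 0.45, with 17 of 20 positive and 0 calls by edgeR (4 higher at an unadjusted p under 0.05, and 0 by DESeq2), while the blocked fit of 6 called 3 of 18 higher. A fit that took the feeder share as a covariate gave medians of 0.35 for Hox genes, 0.27 for secreted factors, 0.10 for primitive endoderm and 0.20 for the feeder list itself. The covariate is the share of that same feeder list, so the smaller median of the feeder list follows in part from the fit. The part of feeder cells in these medians was not tested further.

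Markers of trophoblast and epithelia had mostly negative log2 fold changes. Of the 16 tested 2 were positive, and the median log2 fold change was -0.53. Each Mut-2 library lay below each WT-2 library in 6 of the 16, against 7.43% of all tested genes. By edgeR 0 passed without a block (6 lower at an unadjusted p under 0.05, and 5 by DESeq2), and the blocked fits called 4 (12 libraries) and 5 of 14 (6 libraries) lower. Cdh1, the E-cadherin gene on chromosome 8, had 547, 454 and 391.7 CPM in Mut-2 and 689, 710 and 708 CPM in WT-2 (log2 fold change -0.60, SE 0.14, adjusted p = 0.0592, with 0.0492 and 0.0281 in the blocked fits of 12 and 6). The tight junction genes Cldn4 and Cldn7 and the epithelial splicing factor Esrp1 were at -0.88, -1.36 and -1.69 (adjusted p = 0.103, 0.0939 and 0.0963, with 0.0105, 0.00915 and 0.00915 in the blocked fit of 6). Esrp1 had 6.34, 4.50 and 8.16 CPM in Mut-2, against 24.4, 13.5 and 23.5 CPM in WT-2. The median was -0.55 with the feeder share as a covariate and -0.84 without Mut-2 replicates 1 and 2. For Mut-1 over WT-1 it was 0.16. The test of the difference between the pairs of lines called none of these genes.

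The core pluripotency, neural and Nodal and BMP lists held no call without a block. Of 29 core and naive pluripotency genes 20 were positive, with a median of 0.15 and 0 calls by edgeR (6 higher at an unadjusted p under 0.05, and 0 by DESeq2), and the blocked fit of 6 called 2 higher. Neural markers had a median of 0.38 over 17 genes and 0 calls by edgeR (4 higher at an unadjusted p under 0.05, and 1 by DESeq2), and the blocked fits called 3 (12 libraries) and 4 of 14 (6 libraries) higher. Olig2, a transcription factor of oligodendrocyte and motor neuron precursors, stood out among them with 42.8, 44.6 and 44.1 CPM in Mut-2 and 15.9, 14.7 and 11.4 CPM in WT-2 (log2 fold change 1.65, SE 0.38, adjusted p = 0.0606, with 0.0359 and 0.00915 in the blocked fits of 12 and 6). Mut-1 and WT-1 averaged 30.4 and 27.6 CPM. Of 20 Nodal and BMP genes edgeR called 0 without a block (7 higher and 1 lower at an unadjusted p under 0.05, and 4 higher and 1 lower by DESeq2), and the blocked fits called 3 higher and 1 lower (12 libraries) and 4 higher and 1 lower (6 libraries). Among them Id1, a BMP target, had 22.1, 39.4 and 44.5 CPM in Mut-2 and 13.7, 22.4 and 18.1 CPM in WT-2 (adjusted p = 0.0847, with 0.0297 and 0.0195 in the blocked fits of 12 and 6).

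Interferon and antigen presentation genes were mostly positive, with few calls. Of 44 interferon and nucleic-acid sensing genes 38 were positive, with a median of 0.39 and 0 calls by edgeR (9 higher at an unadjusted p under 0.05, and 3 by DESeq2), and either blocked fit called 1 higher. Isg15, a ubiquitin-like protein gene induced by interferon, had 43.0, 47.0 and 30.8 CPM in Mut-2 and 8.44, 19.3 and 24.2 CPM in WT-2, which did not overlap (log2 fold change 1.22, SE 0.33, adjusted p = 0.0963). Irf9, on chromosome 14, which carries interferon signals to the nucleus, averaged 60.8 CPM in Mut-2 and 33.5 CPM in WT-2 (adjusted p = 0.0816, with 0.0443 and 0.0333 in the blocked fits of 12 and 6). Among 14 MHC class I genes, H2-D1 rose, with 192, 178 and 125 CPM in Mut-2 and 102, 86.4 and 90.7 CPM in WT-2 (log2 fold change 0.82, adjusted p = 0.0428), 13 were positive, and the blocked fit of 6 called 2. Its invariant partner B2m had 303, 309 and 221 CPM in Mut-2, against 155, 149 and 154 CPM in WT-2 (adjusted p = 0.0796, and 0.0172 in the blocked fit of 6). Without Mut-2 replicates 1 and 2 the medians of these lists were 0.06 and -0.02.

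Targets of p53 had 2 higher and 1 lower call among 27, with a median of 0.26 and 22 positive. Besides Tnfrsf10b and Eda2r, Perp, a desmosomal and apoptosis-associated membrane protein gene, had 42.4, 50.9 and 49.0 CPM in Mut-2 and 28.99, 31.2 and 24.5 CPM in WT-2 (log2 fold change 0.75, SE 0.15, adjusted p = 0.0348). Plk2, a stress-induced kinase, had 172, 238 and 194 CPM in Mut-2, against 91.9, 139 and 120 CPM in WT-2 (adjusted p = 0.054, with 0.0399 and 0.0119 in the blocked fits of 12 and 6). The blocked fits called 4 higher and 1 lower in each case.

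Genes of recombination, replication and mitosis had small negative medians. Of 41 recombination and ALT genes 7 were positive, with a median of -0.21 and 0 calls by edgeR (1 higher and 12 lower at an unadjusted p under 0.05, and 1 higher and 2 lower by DESeq2). In 12 of the 41 each Mut-2 library lay below each WT-2 library, against 7.43% of all tested genes. The blocked fit of 6 called 2 of the 41 lower. Xrcc3, which acts in repair by homologous recombination, had 27.8, 22.6 and 24.1 CPM in Mut-2 and 37.8, 31.8 and 33.1 CPM in WT-2 (adjusted p = 0.102). The 47 DNA replication genes had a median of -0.21 and the 31 mitosis genes of -0.13, with 0 calls by edgeR in either (13 and 5 lower at an unadjusted p under 0.05, and 3 and 1 by DESeq2). Of the 47, 5 were positive and 14 had each Mut-2 library below each WT-2 library, a share like that of the recombination list. Of the 31, 3 were positive and 5 were separated in this way. The blocked fit of 6 called 4 replication genes lower and 0 mitosis genes. In glycolysis and hypoxia, 4 of 37 were positive, the median was -0.24 and Pdk1 was the 1 call, against 7 lower calls in the blocked fit of 6. Adding the feeder share as a covariate gave medians of -0.09 for recombination, -0.02 for replication and -0.46 for glycolysis. Psat1, an enzyme of serine synthesis in the amino acid list, had 135, 211 and 141 CPM in Mut-2, against 253, 289 and 403 CPM in WT-2, and passed in the blocked fits (adjusted p = 0.0469 with 12 libraries and 0.0281 with 6, against 0.0931). Myc, a transcription factor of growth and a FGF-ERK target, had 13.3, 33.2 and 31.3 CPM in Mut-2 and 5.43, 15.5 and 15.2 CPM in WT-2. Its lines overlapped because Mut-2 replicate 1 lay below WT-2 replicates 2 and 3. Replicate 1 was the lowest library of each line, and Myc was called in the blocked fit of 6 (adjusted p = 0.0105, against 0.175). Hist1h2bc, a histone H2B gene and the 1 call among 17 replication-dependent histone genes (2 of 14 in the blocked fit of 6), had 33.3, 40.4 and 30.4 CPM in Mut-2, against 19.23, 18.8 and 15.3 CPM in WT-2 (log2 fold change 0.97, adjusted p = 0.0348). The other 13 lists, among them Wnt, Hedgehog, imprinted, cholesterol and ribosomal protein genes, held no call by edgeR without a block and had medians between -0.28 for cholesterol synthesis and 0.46 for formative and primed pluripotency, with at most 6 higher and 5 lower members at an unadjusted p under 0.05 and at most 2 calls by DESeq2. The blocked fits called 1 (12 libraries) and 4 (6 libraries) imprinted genes higher and 1 formative gene higher in either. The blocked fit of 6 also called 2 Wnt targets higher and 1 Hedgehog gene lower.

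**Figure D5:**
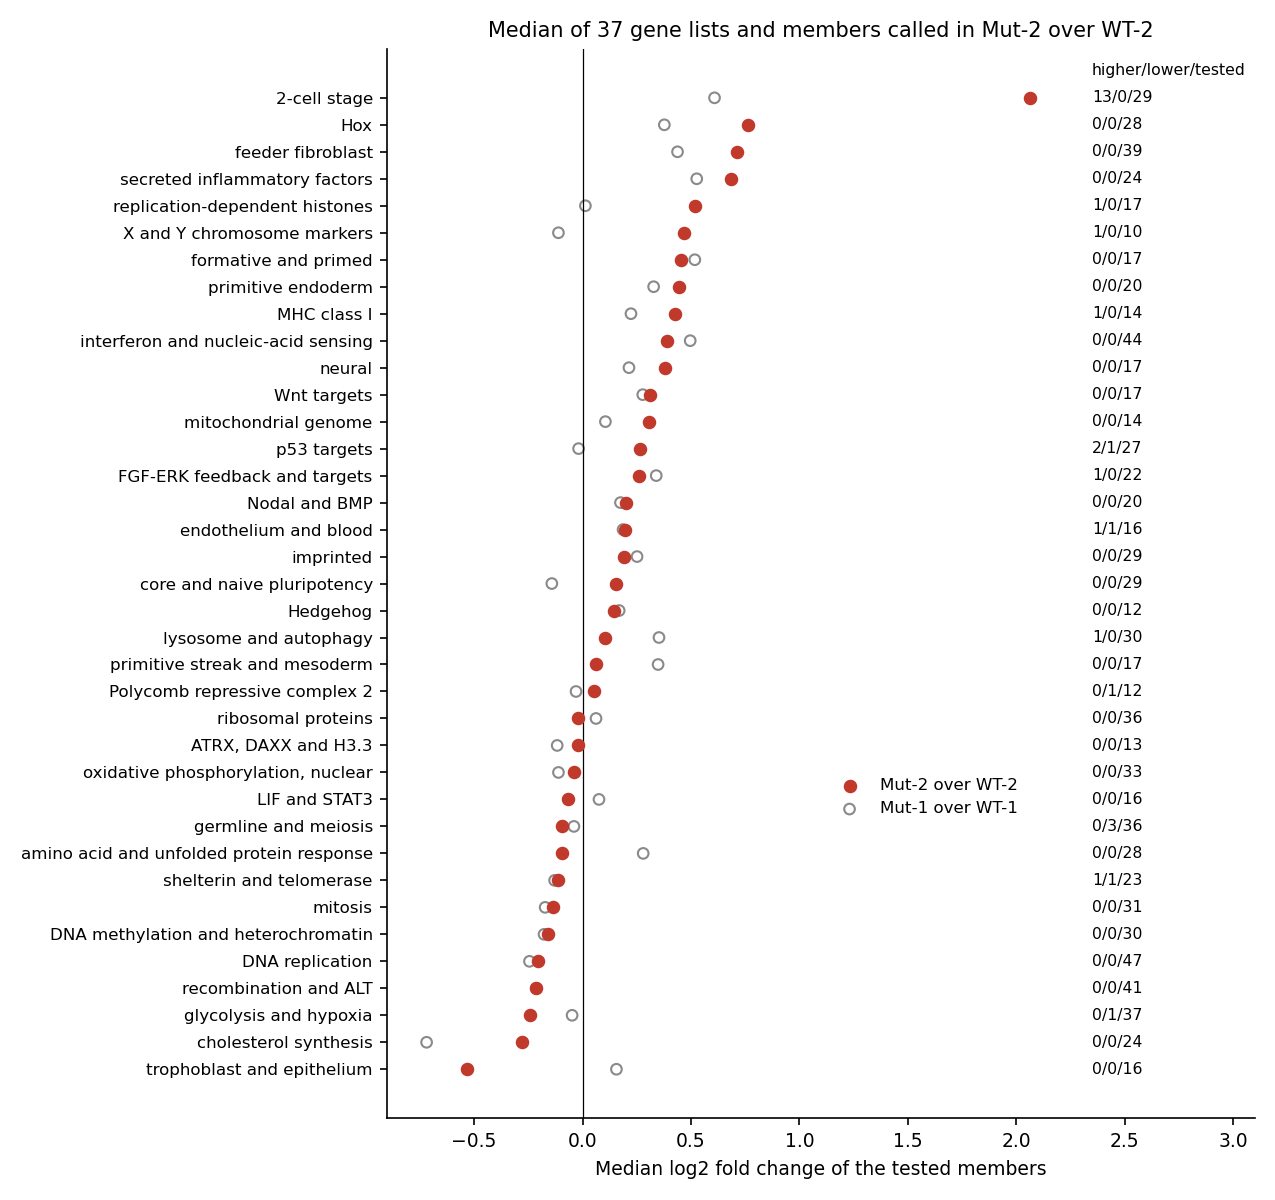
Median log2 fold change of the tested members of 37 gene lists, for Mut-2 over WT-2 (filled) and Mut-1 over WT-1 (open), with the numbers called higher, called lower and tested in Mut-2 over WT-2 at the right. The 2-cell stage list lies at 2.07 and the next, Hox genes, at 0.76, while trophoblast and epithelial markers are lowest at -0.53.

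The change in Mut-2 over WT-2 was set against that in Mut-1 over WT-1 by testing the difference of the log2 fold changes. Of 16533 genes 12 passed (0.0726%), 4 with a larger value in Mut-2 over WT-2 and 8 with a smaller one, and 22 passed in the blocked fit of 12 libraries. Besides Ddx3y and Uty, the larger values belonged to Gm11543 and AI662270, which the naming rule passes over. The smaller ones named by the rule went with a call in Mut-1 over WT-1 and none in Mut-2 over WT-2. Nxf3, an X-linked member of the RNA export factor family, had 2.40, 1.88 and 3.04 CPM in Mut-2 and 2.65, 1.90 and 3.37 CPM in WT-2, while it averaged 12.3 CPM in Mut-1 and 0.632 CPM in WT-1. Rnf216, Slc29a4 and Lmtk2 on chromosome 5 and Pawr on chromosome 10 likewise had log2 fold changes of -0.34 to 0.00 for Mut-2 over WT-2, against 0.96 to 1.21 for Mut-1 over WT-1.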

How the data were processed

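RNA-seq libraries of 4 mouse embryonic stem cell lines, 3 per line, were analysed. The authors deposited raw, whole-number read counts for each gene symbol, without normalization. HTSeq 0.6.0, HISAT2 2.1.0 and Bowtie2 2.2.3, with bcl2fastq and the build GRCm38, are named in the submitters' processing notes without their roles. Annotation and strandedness of the counting are not stated there, so reads of genes that overlap on opposite strands may be mixed. Depth was 14766477 to 17891894 counts per library. The lines were grouped by the labels' titles.

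Genes were tested with edgeR 4.0.16 (R 4.3.3; limma 3.58.1), using the quasi-likelihood test, TMM normalization and filterByExpr over 12 libraries in 4 line groups, with the contrast Mut-2 minus WT-2 and Benjamini-Hochberg adjustment at 0.05. The difference between the pairs of lines was a contrast of the same fit. SE is the log2 fold change divided by the square root of F. CPM values are TMM-normalized. The script was tested on simulated data. DESeq2 1.42.0, RLE normalization, other filters, a feeder covariate, replicate blocks and left-out libraries were tried as alternatives. The members and the 37 gene lists (967 symbols, 952 in the table) were chosen with earlier results of these data known.

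Positions came from GENCODE M21 on GRCm38, where 29569 of 31641 symbols had a position, 186 of them by an older symbol. Symbols altered by R, such as those with hyphens, were restored by name. The genes named were the 15 largest changes per direction among called genes of at least 2 CPM without overlap, Tinf2, the 4 members with the smallest p in each list, and up to 8 per direction of the difference between the pairs. Predicted genes were passed over, except as list members, and 31 of the 153 calls were such genes. Results for some items are not reported here. Other names are said to be chosen after their values were seen.

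The same replicate numbers, which the labels give, deviated from the line means together in Mut-2 and WT-2, with correlations of 0.695, 0.391 and 0.115 over 11416 genes, each over 0.1. Mut-2 replicate 3 correlated more with WT-2 replicate 2 (0.389) than with WT-2 replicate 3, and in Mut-1 and WT-1 the same numbers gave -0.131, 0.217 and 0.103. No libraries held identical values. The chi-square of counts per degree of freedom was 17.4 to 35.4 within Mut-2 and within WT-2. It was 1.62 for WT-1 replicates 1 and 2, which still exceeds sampling noise but is far below all other pairs within a line (10.9 to 38.4). All libraries were kept, and the fit of 12 libraries counted these 2 as separate.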

Additional observations from a re-analysis of the deposited data

Results flagged for a closer look

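The genes below were singled out because the test of the difference between the pairs of lines passed for them: the change in Mut-2 over WT-2 differed from that in Mut-1 over WT-1 (edgeR, adjusted p under 0.05). On the Y chromosome the difference of log2 fold changes was 2.54 for Ddx3y and 3.31 for Uty, since both were higher in Mut-2 than in WT-2 and lower in Mut-1 than in WT-1. On the X chromosome it was -4.38 for Nxf3, which averaged 2.44 CPM in Mut-2, 2.64 CPM in WT-2, 12.3 CPM in Mut-1 and 0.632 CPM in WT-1. On chromosome 5 it was -1.55 for Slc29a4, -1.42 for Lmtk2 and -1.08 for Rnf216. The remaining genes were Ccdc141 on chromosome 2 at -1.41, Fam220a at -0.99 and Pawr on chromosome 10 at -0.97. Each of these values comes from 1 line per arm, so it describes these lines.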

How the results depend on the processing

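The number of genes called in Mut-2 over WT-2 depended strongly on the fit, against 153 as reported. It was 12 with only the 6 Mut-2 and WT-2 libraries, 689 with DESeq2, 966 with no filter on low counts, 64 with the feeder share as a covariate, 83 without chromosome 14 genes and 2 without Mut-2 replicates 1 and 2. Leaving out each of the 12 libraries gave 9 to 234, with 9 without Mut-2 replicate 2, 10 without WT-2 replicate 3 and 22 without WT-2 replicate 1. Without WT-1 replicate 1 or 2, the pair most alike, it gave 64 or 62, and without WT-1 replicate 3 it gave 229. RLE normalization gave 137 calls, 133 of them shared with the 153, and a filter at 2 CPM gave 144. With the replicate number as a block, the pairing gave 328 calls in 12 libraries, which hold all 153, and 786 in the 6 libraries, which hold 150 of them.

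For the difference between the pairs of lines, against 12 genes, DESeq2 called 91, no filter 302, the replicate block 22, and the fit without Mut-2 replicates 1 and 2 called 0 (2 genes passed there for Mut-2 over WT-2). Leaving out 1 library gave 2 to 72. The feeder share ratio of Mut-2 over WT-2, 1.52, was 1.37 to 1.75 with a library left out. The shifts of chromosomes 14 and 8 moved by less than the spread between libraries with filters at 2 or 20 CPM. Of the named genes, Meg3 changed sign with the feeder covariate, to -0.0443. The cause of these differences was not tested. Intervals of low genes are limited by depth, since 1 CPM is about 16 reads here.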
